A study of Homo sapiens with 12 samples.

Results

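The 59 genes described here lie in a stretch of the long arm of human chromosome 15, from DPP8 to LYSMD4, among other genes that are not on the list. They were listed by name because they were lower together in cells that lack the cap-binding protein 4EHP. All 59 were found among the 27011 genes of the deposited count tables, and all 59 had enough counts to be fitted in both assays. The genes were chosen by their lower measured level in 4EHP-null than in wild-type cells, and the counts of both assays are taken as used in that choice. Their mRNA and ribosome footprint values in that comparison are therefore given as a description and carry no p-value.

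The cells were HEK293T, a human embryonic kidney line, and came in 3 genotypes, which the labels give as 4EHP-null, GIGYF1/2-null and Wild-type (WT). No treatment was given, and cells were plated in dishes of 15 cm 24 h before harvest. Each genotype had 2 libraries of messenger RNA (RNA-seq) and 2 libraries of ribosome-protected fragments (Ribo-seq, a measure of translation), 12 in all. The labels do not say how the null cells were made, whether each line came from 1 clone, or whether replicates were separate cultures, so a p-value here reflects only how far these libraries scatter.

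4EHP, encoded by EIF4E2, is a relative of the translation initiation factor eIF4E that binds the mRNA cap without starting translation, and GIGYF1 and GIGYF2 are scaffold proteins that bind it. The listed genes belong to no common pathway: they encode kinases and receptors, DNA repair proteins, metabolic enzymes, trafficking proteins and chromatin factors, and what they share is a stretch of chromosome. Gene products that work in complexes or that have a close relative elsewhere in the genome are a usual setting for asking whether a lower mRNA level is evened out at another step, and the footprint data allow the mRNA level and the footprint level of each gene to be set side by side. DNA was not sequenced, so gene copy number was not measured here.

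Total counts ran from 26143118 to 38175701 per RNA-seq library and from 6536493 to 10816080 per Ribo-seq library. Levels are in CPM, counts per 1000000 library counts after scaling for library composition, and changes are log2 fold changes ± standard error from edgeR with 2 libraries per genotype. EIF4E2 had 51.0 and 46.7 CPM of mRNA in 4EHP-null cells, 131 and 137 CPM in GIGYF1/2-null cells and 123 and 123 CPM in WT cells, so its level followed the labels. GIGYF1 mRNA fell in GIGYF1/2-null cells (log2 change -0.76 ± 0.11, edgeR adjusted p = 6.91e-04), while GIGYF2 mRNA did not pass the test there (0.28 ± 0.11, edgeR adjusted p = 0.124). Footprints of GIGYF1 fell there as well (-1.73 ± 0.29, edgeR adjusted p = 0.0120), and those of GIGYF2 did not pass the test (-0.21 ± 0.22, edgeR adjusted p = 0.671). A fall of GIGYF2 thus passed the test in neither assay. Of 7 markers of HEK293T cells, 6 were above 10 CPM in every RNA-seq library and PAX2 was at 2.17 to 4.2 CPM. Of these markers, the neurofilament genes NEFM and NEFL fell in 4EHP-null over WT (-2.02 ± 0.14 and -1.11 ± 0.08, edgeR adjusted p = 1.54e-06 and 2.94e-06). The keratin KRT8 and CDH2 rose (0.99 ± 0.11 and 0.48 ± 0.08, edgeR adjusted p = 1.28e-04 and 2.23e-03). In GIGYF1/2-null over WT, KRT8, KRT18, NEFL and NEFM rose (1.26 ± 0.11, 0.53 ± 0.08, 0.45 ± 0.08 and 0.44 ± 0.13, edgeR adjusted p = 3.23e-05, 1.37e-03, 2.67e-03 and 0.0470). VIM fell there (-0.48 ± 0.14, edgeR adjusted p = 0.0376). In each comparison the markers not named did not pass the test. The part of these changes in the results that follow was not tested. The summed mRNA level of 7 markers of blood, fibroblast, liver and endothelial cells was 7.89 to 9.52 CPM in 4EHP-null libraries. It was 12.9 to 13.4 CPM in GIGYF1/2-null and 8.24 to 8.34 CPM in WT libraries. Of the 7, 5 were under 1 CPM in every RNA-seq library, including PTPRC, CD3E and PECAM1. PECAM1, an endothelial marker, had 1.99 to 6.63 CPM of footprints over the Ribo-seq libraries.

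The mRNA of the 59 genes was lower in 4EHP-null cells by a similar factor for most of them. Together they took 0.527% and 0.531% of all RNA-seq counts in 4EHP-null libraries, 0.675% and 0.664% in GIGYF1/2-null libraries and 0.664% and 0.653% in WT libraries. Both 4EHP-null libraries were below the 4 others, which lay close together. The median log2 change of 4EHP-null over WT was -0.35, a ratio of 0.785, and the middle of the list ran from -0.43 to -0.25 (lower and upper quartiles). A change below 0 was seen for 57 of the 59 genes, against 50.4% of the 15637 genes tested. edgeR called 34 of the 59 down and 0 up at an adjusted p under 0.05, where 6.63% of all tested genes were called down and 6.47% up. DESeq2 called 35 down and 0 up, and edgeR called 14 to 18 down when any 1 of the 2 4EHP-null and 2 WT libraries was left out. Both 4EHP-null libraries were below both WT libraries for 52 genes and above them for 0, and the groups overlapped for 7; of all tested genes, 29.1% had both 4EHP-null libraries below both WT libraries. In bulk libraries of this kind, fewer expressing cells and less RNA per cell cannot be told apart.

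The position of the genes along the chromosome is what the list was drawn on, and its edges can be read from all 527 chromosome 15 genes tested, whose order was taken from a RefSeq table. The 270 tested genes that come before DPP8 had a median change of 0.02, with 4 called down and 13 up. The 10 genes just before DPP8 had a median of -0.09, and PARP16, an ADP-ribosyltransferase of the endoplasmic reticulum that lies among them, was the only one called down (-0.44). From DPP8 to LYSMD4 the tables held 240 tested genes, of which 181 are not on the list. Those 181 had a median of -0.43, with 71 called down and 2 up. The 17 tested genes between LYSMD4 and the end of the chromosome had a median of -0.42 with 6 called down, among them CHSY1, PCSK6 and TARSL2. The lower mRNA level did not end at LYSMD4 but ran on towards the end of the chromosome. By footprints, the 13 genes after LYSMD4 that were tested had a median of -0.18, with 3 called down. The 200 genes tested for footprints from DPP8 to LYSMD4 had a median of -0.41, with 19 called down (1.46% of all genes tested). The difference between these medians was not tested.

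**Figure D1:**
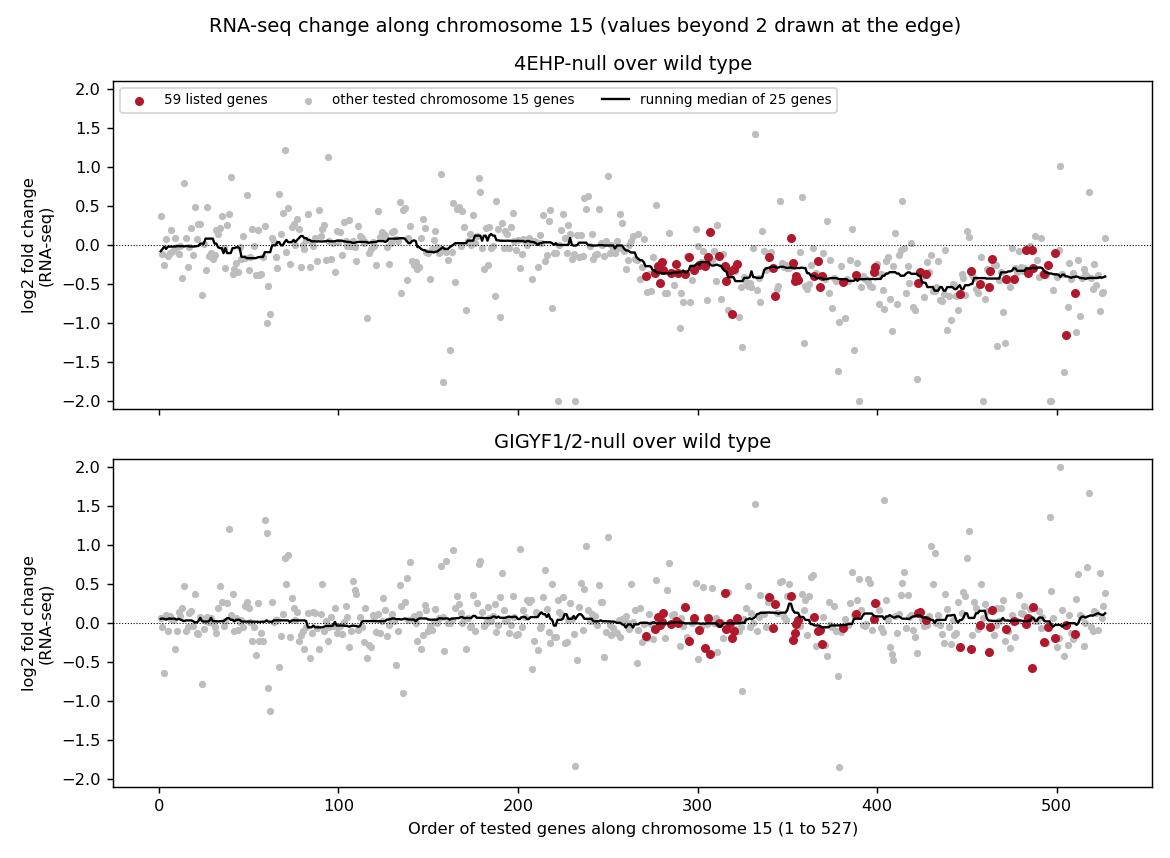
RNA-seq log2 fold change of each tested gene in its order along chromosome 15, for 4EHP-null over WT (upper panel) and GIGYF1/2-null over WT (lower panel). Red points are the 59 listed genes, grey points the other tested genes, points beyond 2 in either direction are drawn at 2, and the black line is the running median of 25 genes, which leaves 0 near DPP8 in 4EHP-null cells and stays between -0.06 and 0.25 over the same genes in GIGYF1/2-null cells.

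Within the block the running median of 25 neighbouring genes was not flat. It was nearest 0 around GLCE, beside the listed gene ANP32A, at -0.22, and lowest around ADAMTSL3, whose nearest listed gene in order was BTBD1, at -0.59. Among unlisted genes of the block with an average log2 CPM of at least 2, the lowest changes were those of IQCH (-1.06), HYKK (-0.93), MESP1 (-0.86), NMB (-0.84), FSD2 (-0.83) and SNHG21 (-0.80). The highest were CSPG4 (0.62) and RPP25 (0.56), both called up, then MEGF11 (0.52), ARID3B (0.18), EFL1 (0.15) and UNC45A (0.08). CSPG4 and RPP25 were also higher in GIGYF1/2-null cells, at 0.37 and 0.52. The list holds neither of the 2 neighbours that were called up, so its own range was set in part by how it was drawn.

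The lowest member was IGF1R, the receptor tyrosine kinase for insulin-like growth factors. Its mRNA had 30.7 and 29.1 CPM in 4EHP-null cells, 67.6 and 63.1 CPM in GIGYF1/2-null cells and 69.1 and 64.1 CPM in WT cells, a log2 change of -1.16 ± 0.09 in 4EHP-null over WT. The 4EHP-null libraries were under every other library, and the GIGYF1/2-null and WT libraries overlapped. BBS4, a subunit of the BBSome that carries cargo to cilia, had 18.6 and 21.6 CPM in 4EHP-null cells, 31.4 and 33.7 CPM in GIGYF1/2-null cells and 36.3 and 38.0 CPM in WT cells (-0.89 ± 0.11 in 4EHP-null over WT). Here the genotypes did not overlap at all, with GIGYF1/2-null cells between the others.

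MPI, which turns fructose 6-phosphate into mannose 6-phosphate for glycosylation, had 86.6 and 85.3 CPM in 4EHP-null cells, 157 and 165 CPM in GIGYF1/2-null cells and 130 and 141 CPM in WT cells. SEC11A, a catalytic subunit of the signal peptidase, had 115 and 120 CPM in 4EHP-null cells, 141 and 152 CPM in GIGYF1/2-null cells and 183 and 179 CPM in WT cells. The 4EHP-null level was the lowest for both genes, while GIGYF1/2-null cells were above WT for MPI and below it for SEC11A. LYSMD4, a LysM domain protein at the end of the list, had 12.2 and 11.5 CPM in 4EHP-null cells, 15.7 and 17.4 CPM in GIGYF1/2-null cells and 18.6 and 17.9 CPM in WT cells. RCN2, a calcium-binding protein of the endoplasmic reticulum, had 206 and 205 CPM in 4EHP-null cells, 291 and 269 CPM in GIGYF1/2-null cells and 309 and 289 CPM in WT cells. In 4EHP-null over WT the log2 changes of these 4 genes were -0.66 ± 0.08 for MPI, -0.63 ± 0.08 for SEC11A, -0.62 ± 0.11 for LYSMD4 and -0.54 ± 0.08 for RCN2.

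At the other end, UACA, a coiled-coil protein linked to the cytoskeleton and apoptosis, had 12.9 and 16.8 CPM in 4EHP-null cells, 11.8 and 8.36 CPM in GIGYF1/2-null cells and 14.4 and 12.1 CPM in WT cells. Its 4EHP-null and WT libraries overlapped, at a change of 0.17 ± 0.17. MAN2C1, a cytosolic alpha-mannosidase, had 21.2 and 17.3 CPM in 4EHP-null cells, 22.7 and 23.2 CPM in GIGYF1/2-null cells and 18.7 and 17.6 CPM in WT cells (0.09 ± 0.12 in 4EHP-null over WT). These were the 2 members with a change above 0, and in both the error spans 0.

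IQGAP1, a scaffold that links calmodulin to actin, had 101 and 100 CPM in 4EHP-null cells, 121 and 87.5 CPM in GIGYF1/2-null cells and 112 and 98.0 CPM in WT cells (-0.06 ± 0.13 in 4EHP-null over WT). BLM, the RecQ helicase of Bloom syndrome, had 47.4 and 53.1 CPM in 4EHP-null cells, 38.4 and 32.2 CPM in GIGYF1/2-null cells and 54.3 and 51.1 CPM in WT cells (-0.07 ± 0.11 in 4EHP-null over WT). CHD2, a chromatin remodeller, had 60.6 and 62.8 CPM in 4EHP-null cells, 59.2 and 56.7 CPM in GIGYF1/2-null cells and 68.7 and 63.9 CPM in WT cells, and MYO9A, an unconventional myosin, stood at -0.14 ± 0.12 in 4EHP-null over WT. Of these 4 genes only CHD2 had both 4EHP-null libraries below both WT libraries, by a narrow margin (-0.10 ± 0.08).

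**Figure D2:**
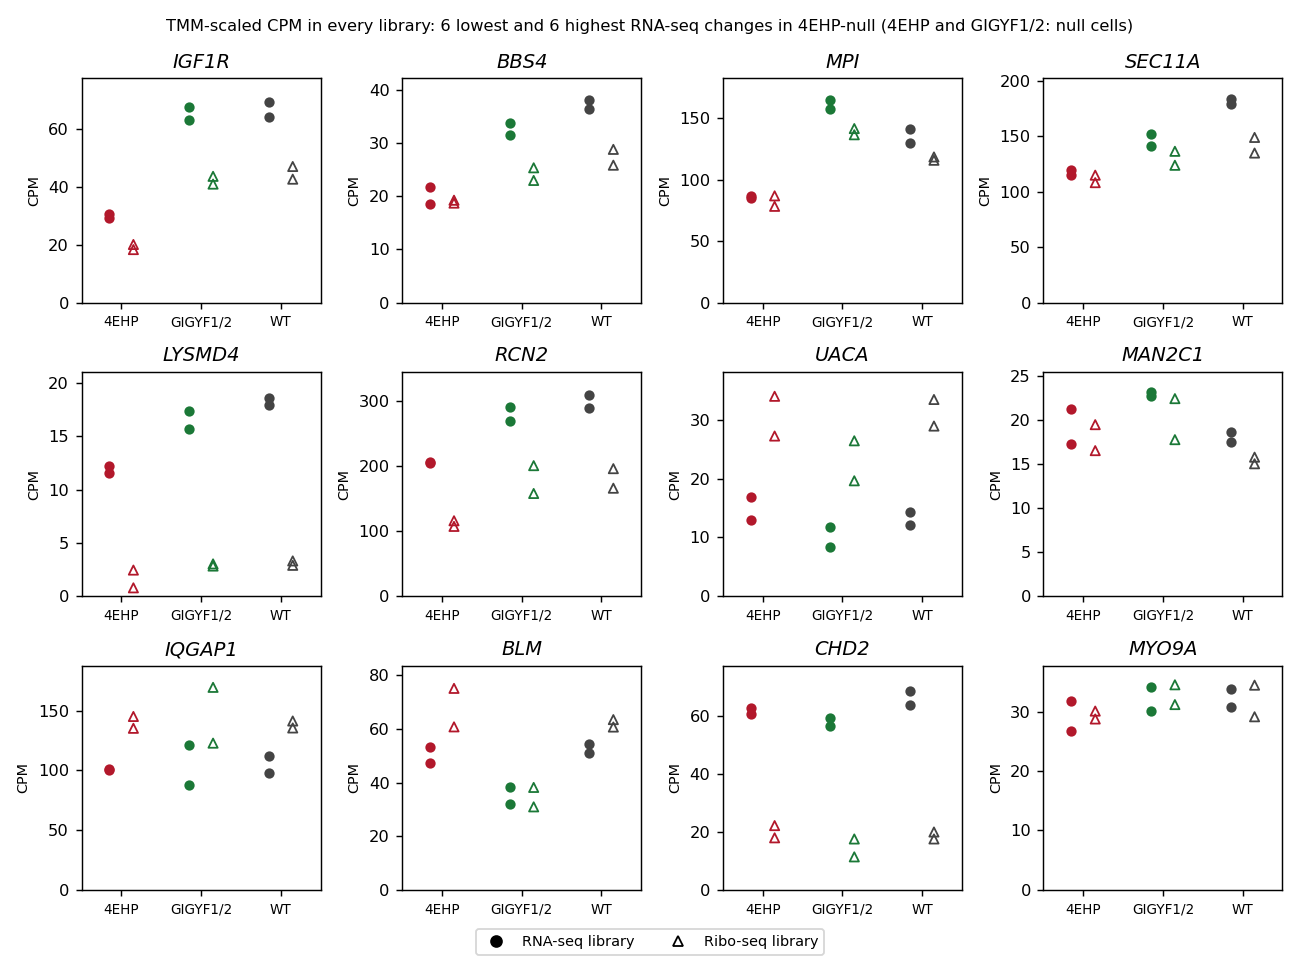
TMM-scaled CPM on a linear axis in every library for the 6 members with the lowest and the 6 with the highest RNA-seq change in 4EHP-null over WT. Filled circles are RNA-seq and open triangles Ribo-seq libraries, with 4EHP-null, GIGYF1/2-null and WT from left to right; IGF1R stands near 30 CPM of mRNA in 4EHP-null cells and above 60 CPM in all others, while for IQGAP1 the genotypes overlap.

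The members spread around their own median by more than the standard error of a single gene. The standard deviation of the 59 RNA-seq changes was 0.20, and 0.17 without IGF1R, where the median standard error of a single gene was 0.09. In GIGYF1/2-null over WT the same 59 genes had a standard deviation of 0.19 around a median near 0. In 4EHP-null over WT, 45 genes were within 2 standard errors of the list's median. The 7 that were lower by more than that were IGF1R, BBS4, MPI, SEC11A, LYSMD4, RCN2 and ABHD2, a serine hydrolase, and the 7 that were higher were UACA, MAN2C1, IQGAP1, BLM, CHD2, TLE3 and CSK. Over the 59 genes, Spearman's rho of the RNA-seq change was -0.23 with the average expression level and 0.30 with the gene length in the deposited table. With the order along the chromosome it was -0.17. These are descriptions over genes that share the same 6 RNA-seq libraries.

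The lower level ran through every role on the list. Among proteins of signalling, 10 genes had a median RNA-seq change of -0.24 and 3 were called down. SMAD3, which carries TGF-beta signals to the nucleus, stood at -0.24, and NEO1, a netrin and repulsive guidance receptor, at -0.25. MAP2K1, the kinase MEK1 of the ERK pathway, was at -0.22, MAP2K5, which activates ERK5, at -0.37, and CSK, the kinase that holds Src-family kinases in check, at -0.16. PTPN9, a tyrosine phosphatase, was at -0.46, and AKAP13, an anchor for protein kinase A, at -0.33. PIAS1, a SUMO ligase, was at -0.16, and IQGAP1 and IGF1R complete the group.

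The 8 transcription and chromatin genes had a median of -0.27, with 2 called down. ANP32A, an acidic nuclear chaperone, was at -0.25, and ARNT2, a bHLH-PAS partner protein, at -0.29. MORF4L1, a subunit of the NuA4 acetyltransferase and Sin3 complexes, was at -0.38 and was the most abundant member per length, at 274 RPKM (CPM per kilobase of gene length) in WT cells, where the list ran from 1.82 RPKM for UACA and had a median of 18.4. CRTC3, a coactivator of CREB, was at -0.36, SNAPC5, a subunit of the complex that activates small nuclear RNA genes, at -0.32, and SIN3A, a corepressor scaffold, at -0.23. TLE3, a Groucho corepressor, was at -0.16, and CHD2 was described above.

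The 5 genes of DNA replication and repair had a median of -0.34 and 3 were called down. FANCI, which pairs with FANCD2 at interstrand crosslinks, stood at -0.34, TIPIN, a partner of TIMELESS at replication forks, at -0.48, and AEN, a nuclease induced by p53, at -0.50. POLG, the mitochondrial DNA polymerase, was at -0.19 and BLM near 0. FANCI and POLG overlap each other in the RefSeq table, and without a stated strand setting their reads cannot be fully told apart. The 3 cell division genes, ZWILCH of the kinetochore, KIF23 of the central spindle and PRC1, which bundles spindle microtubules, were at -0.35, -0.27 and -0.37.

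Among 8 metabolic genes, 6 were called down at a median of -0.41. ETFA, a subunit of the electron transfer flavoprotein, was at -0.40, IDH2, the mitochondrial NADP-dependent isocitrate dehydrogenase, at -0.43, and HEXA, the lysosomal hexosaminidase subunit lost in Tay-Sachs disease, at -0.46. FAH, the last enzyme of tyrosine breakdown, stood at -0.35, ADPGK, an ADP-dependent glucokinase, at -0.30 and ABHD2 at -0.54. The 4 proteases and secretory proteins (DPP8, a dipeptidyl peptidase; FURIN, a proprotein convertase; SEC11A; RCN2) had a median of -0.47, with DPP8 at -0.40 and FURIN at -0.30.

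The 12 genes of membrane traffic, cilia and cytoskeleton had a median of -0.35, with 8 called down. AAGAB, an assembly chaperone of adaptor complexes, was at -0.36, HOMER2, a scaffold of synapses and calcium signalling, at -0.35, and RAB11A, the GTPase of recycling endosomes, at -0.37. AP3S2, an adaptor subunit, stood at -0.43, WHAMM, an activator of Arp2/3, at -0.49 and TSPAN3, a tetraspanin, at -0.39. SCAMP2, a secretory carrier membrane protein, was at -0.30, VPS33B, a vesicle tethering protein, at -0.26 and SCAPER, which binds cyclin A, at -0.20. The 4 genes of ubiquitin and ADP-ribose transfer had a median of -0.33: FEM1B, which recognises substrates for a cullin ligase, at -0.33, ARIH1, an ariadne ubiquitin ligase, at -0.33, BTBD1, a BTB-domain protein, at -0.37 and PARP6, a mono-ADP-ribosyltransferase, at -0.27. The 4 RNA genes had a median of -0.42, with SNUPN, the import adaptor of snRNPs, at -0.40, IMP3, a U3 snoRNP protein, at -0.45, IREB2, the iron regulatory protein IRP2, at -0.47 and DIS3L, a catalytic subunit of the cytoplasmic exosome, at -0.27.

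**Figure D3:**
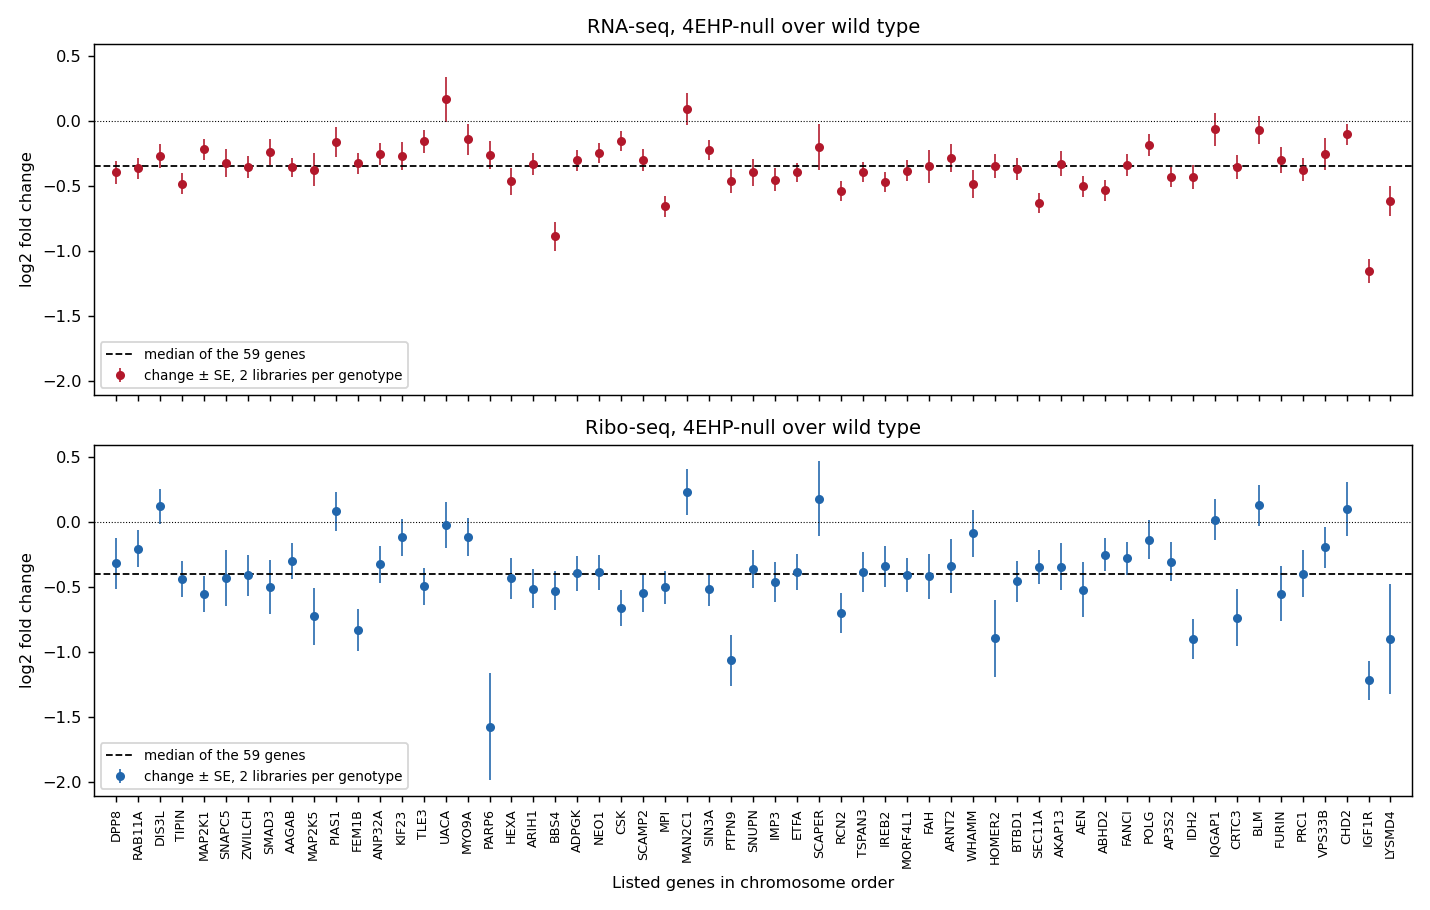
RNA-seq (upper panel) and Ribo-seq (lower panel) log2 fold change of 4EHP-null over WT for the 59 genes in chromosome order, each point with its standard error (2 libraries per genotype). The dashed line is the median of the panel, at -0.35 for mRNA and -0.40 for footprints, and 45 RNA-seq and 47 Ribo-seq points lie within 2 standard errors of it.

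Counts of overlapping genes could carry a change from one gene to the other, since the strand setting was not given in the sources used here. The RefSeq spans of 29 members overlap another gene of the count tables, among them MAP2K1 with SNAPC5, WHAMM with HOMER2, MPI with FAM219B and IGF1R with the antisense transcript IRAIN. The median RNA-seq change in 4EHP-null over WT was -0.33 for those 29 and -0.37 for the 30 that overlap none, where 17 of 29 and 17 of 30 were called down. No member had counts identical to another chromosome 15 gene.

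Promoter sequence was available for 53 of the 59 members from RefSeq (GRCh38.p14), as 250 bases before the first start listed for each gene. These stretches had a median GC content of 66.4%, against 58% over 27305 promoters of the same table, which also holds non-coding genes, and a median of 23 CG pairs against 11. The GC box GGGCGG was found on either strand in 37 of 53 (69.8%) and in 42.3% of all promoters. The CCAAT box CCAAT was found in 21 (39.6%, all promoters 33.0%), the ETS motif CCGGAAG in 9 (17.0%, all promoters 8.82%) and the TATA box TATAAA in 2 (3.77%, all promoters 11.1%). Motifs were searched on both strands and allowed to overlap, and a match is a description of these letters and no more.

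One pair of members has starts that face away from each other across a short stretch of DNA. TIPIN (minus strand) and MAP2K1 (plus strand) start 194 bases apart, and their mRNA changes in 4EHP-null over WT were -0.48 ± 0.08 and -0.22 ± 0.08, a difference that was not tested. The sequences of that stretch and of the 250 bases before the starts of IGF1R, the lowest member, and IQGAP1, one near 0, are given on the plus strand with the GC box and CCAAT box in capitals on whichever strand they lie; no ETS motif or TATA box was found in them. The stretch between TIPIN and MAP2K1 is chr15:66386718-66386911, that of IGF1R chr15:98648289-98648538 and that of IQGAP1 chr15:90387992-90388241, all in GRCh38.p14.
TIPIN to MAP2K1: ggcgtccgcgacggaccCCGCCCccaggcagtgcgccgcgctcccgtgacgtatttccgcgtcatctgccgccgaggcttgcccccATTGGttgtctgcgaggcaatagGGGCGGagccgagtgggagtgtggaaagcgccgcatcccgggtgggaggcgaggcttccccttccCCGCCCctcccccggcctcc
IGF1R: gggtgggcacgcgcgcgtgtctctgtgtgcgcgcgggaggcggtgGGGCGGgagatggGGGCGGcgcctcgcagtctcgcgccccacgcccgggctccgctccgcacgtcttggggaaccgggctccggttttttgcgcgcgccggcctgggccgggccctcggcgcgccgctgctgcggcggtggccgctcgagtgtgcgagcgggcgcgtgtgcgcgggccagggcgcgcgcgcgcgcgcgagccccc
IQGAP1: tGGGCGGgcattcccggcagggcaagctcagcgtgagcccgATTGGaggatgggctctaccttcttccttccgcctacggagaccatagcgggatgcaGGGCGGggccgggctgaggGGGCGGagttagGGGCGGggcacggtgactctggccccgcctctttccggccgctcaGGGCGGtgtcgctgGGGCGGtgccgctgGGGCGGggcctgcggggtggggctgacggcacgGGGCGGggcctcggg
The first stretch holds 3 GC boxes and 1 CCAAT box, the IGF1R stretch 2 GC boxes, and the IQGAP1 stretch 8 GC boxes and 1 CCAAT box. The GC content was 72.7%, 81.2% and 74.4%, so members at opposite ends of the range both had GC-rich starts.

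Ribosome footprints of the 59 genes were lower in 4EHP-null cells by about as much as the mRNA. The genes took 0.356% and 0.363% of Ribo-seq counts in 4EHP-null libraries, 0.443% and 0.482% in GIGYF1/2-null libraries and 0.455% and 0.479% in WT libraries. The median change was -0.40, a ratio of 0.759, and 52 of the 59 genes were below 0, against 50.3% of the 14722 genes tested. edgeR called 7 down and 0 up, where 1.46% of all tested genes were called down and 1.58% up. DESeq2 called 6 down and 0 up, and edgeR called 1 or 2 down when any 1 of the 4EHP-null and WT libraries was left out. Both 4EHP-null libraries were below both WT libraries for 49 genes and above them for 3, and the groups overlapped for 7; over all tested genes, 26.8% had both 4EHP-null libraries below. A change below 0 in both assays was seen for 51 genes, 5 were called down in both, 29 in RNA-seq alone and 2 in Ribo-seq alone. That split counts calls and is no test of a difference between the assays, since the median standard error was 0.15 in Ribo-seq and 0.09 in RNA-seq.

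The 5 genes whose footprints were lower than the list's median by more than 2 standard errors were PARP6, IGF1R, PTPN9, IDH2 and FEM1B. IGF1R had 18.3 and 20.0 CPM of footprints in 4EHP-null cells, 43.5 and 40.9 CPM in GIGYF1/2-null cells and 46.9 and 42.6 CPM in WT cells, a change of -1.22 ± 0.15 that matched its mRNA. IDH2 had 21.4 and 27.0 CPM of footprints in 4EHP-null cells, 37.2 and 40.9 CPM in GIGYF1/2-null cells and 46.7 and 44.2 CPM in WT cells (-0.90 ± 0.16 in 4EHP-null over WT). In both genes the 4EHP-null footprints were below all 4 other libraries. The 7 genes higher than the list's median by more than 2 standard errors were MAN2C1, BLM, DIS3L, CHD2, PIAS1, IQGAP1 and UACA, of which all but DIS3L and PIAS1 were also high in RNA-seq by the same measure.

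Translation efficiency (TE), the footprint change over and above the mRNA change, had a median of 0.01 over the 59 genes in 4EHP-null over WT. It was below 0 for 28 genes and above 0 for 31 (52.8% of all genes were below 0), and 0 of 59 by edgeR were called, where 0.0981% of 13257 genes were called in either direction. A TE change more than 2 standard errors from 0 was seen for 7 genes below and 5 above, and for 9.01% of all genes tested. DESeq2 was not run for TE. The standard deviation of the 59 TE changes was 0.29 in 4EHP-null over WT and 0.18 in GIGYF1/2-null over WT, with median standard errors of 0.18 and 0.18. Across the 59 genes the RNA-seq and Ribo-seq changes in 4EHP-null over WT had a Pearson r of 0.51 and a Spearman rho of 0.40, and r was 0.42 without IGF1R and 0.51 without IGF1R and PARP6. These are descriptions over genes, which share their libraries.

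**Figure D4:**
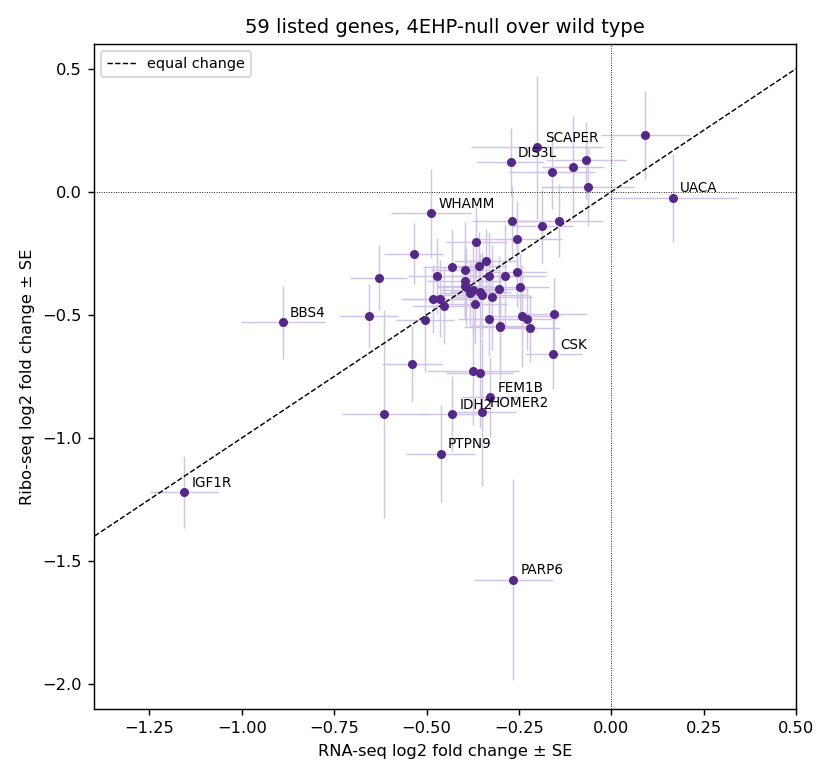
Ribo-seq against RNA-seq log2 fold change of 4EHP-null over WT for the 59 genes, each with its standard errors, and a dashed line where both changes are equal. IGF1R lies on the line at about -1.2, PARP6, PTPN9, HOMER2 and FEM1B lie below it, and WHAMM, DIS3L, SCAPER and BBS4 above it.

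The lowest TE changes were those of PARP6, PTPN9, HOMER2 and FEM1B. PARP6 had 1.42 and 0.681 CPM of footprints in 4EHP-null cells, 2.18 and 2.65 CPM in GIGYF1/2-null cells and 3.04 and 3.12 CPM in WT cells, against 39.3 and 40.9 CPM of mRNA in 4EHP-null cells and 48.7 and 47.8 CPM in WT cells. Its TE change of -1.30 ± 0.40 thus rests on very few footprints. PTPN9 had 8.82 and 8.99 CPM of footprints in 4EHP-null cells, 12.6 and 17.3 CPM in GIGYF1/2-null cells and 18.1 and 19.1 CPM in WT cells, with a TE change of -0.58 ± 0.21. HOMER2 had 4.41 and 4.09 CPM of footprints in 4EHP-null cells, 8.85 and 5.31 CPM in GIGYF1/2-null cells and 9.13 and 6.91 CPM in WT cells, with a TE change of -0.52 ± 0.30. FEM1B had 32.1 and 34.2 CPM of footprints in 4EHP-null cells, 43.9 and 57.8 CPM in GIGYF1/2-null cells and 61.3 and 57.1 CPM in WT cells, with a TE change of -0.48 ± 0.17. For all 4 genes the 4EHP-null footprint libraries were below every library of the other genotypes.

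The highest TE changes were those of WHAMM, DIS3L, SCAPER and BBS4. WHAMM had 10.4 and 9.54 CPM of footprints in 4EHP-null cells, 15.3 and 16.5 CPM in GIGYF1/2-null cells and 10.4 and 10.7 CPM in WT cells, so that its footprints were close to WT while its mRNA stood at 14.6 and 13.9 CPM in 4EHP-null cells and 20.5 and 19.6 CPM in WT cells (TE change 0.42 ± 0.19). DIS3L had 44.4 and 41.1 CPM of footprints in 4EHP-null cells, 38.2 and 38.7 CPM in GIGYF1/2-null cells and 38.4 and 40.2 CPM in WT cells (TE change 0.41 ± 0.15). It was 1 of the 3 genes, with PIAS1 and MAN2C1, whose footprints were above WT in both 4EHP-null libraries. SCAPER's TE change was 0.40 ± 0.37, about its error, and that of BBS4 was 0.38 ± 0.17. WHAMM and HOMER2 overlap in the RefSeq table, and they stand at opposite ends of the TE order.

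In GIGYF1/2-null cells, which share their WT libraries with the comparison above, the RNA-seq changes of the 59 genes centred near 0. Since the genes were chosen against these WT libraries, scatter that raised a WT value would also favour a fall here. The part of this in the falls below was not tested. The median RNA-seq change of the 59 genes was -0.02, which became 0.03 with upper-quartile scaling, and 35 of the 59 were below 0, against 49.1% of all genes tested. edgeR called 5 down and 2 up, which is 7 of 59 where 11.9% of all tested genes were called (6.75% down and 5.2% up). Both GIGYF1/2-null libraries were below both WT libraries for 20 genes and above them for 14, and the groups overlapped for 25, where 26.2% of all genes had both below and 26.8% both above. The median footprint change was -0.07, with 39 of 59 below 0 against 49.6% of all genes tested, and both GIGYF1/2-null footprint libraries were below both WT libraries for 17 genes and above them for 8 (23.7% and 24.2% of all genes). The 5 that fell were BLM, ABHD2, SEC11A, AKAP13 and TSPAN3, and the 2 that rose were CSK and PARP6. Set beside each other, both 4EHP-null libraries were below both GIGYF1/2-null libraries for 49 of the 59 genes by mRNA and above them for 3, where 31.7% of all genes had both below and 30.7% both above. By footprints they were below for 44 and above for 5, where the shares of all genes were 28.2% and 25.7%. The genes were chosen by low values in these same 4EHP-null libraries. The counts of 4EHP-null against GIGYF1/2-null libraries are therefore a description and no separate support.

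BLM had the lowest change. Its mRNA fell to 38.4 and 32.2 CPM in GIGYF1/2-null cells, against 54.3 and 51.1 CPM in WT cells (-0.58 ± 0.11, edgeR adjusted p = 4.55e-03). Its footprints had 38.2 and 31.0 CPM in GIGYF1/2-null cells and 60.7 and 63.5 CPM in WT cells (-0.85 ± 0.16, edgeR adjusted p = 0.0202), the only footprint call on the list, where 2.09% of all genes were called (1.36% down and 0.727% up). With these settings edgeR called 0 footprint gains, as did DESeq2, while edgeR without a filter on low counts called 1, and 3 genes were higher and 4 lower at an unadjusted p under 0.05 in edgeR. For that unadjusted threshold the share of all genes was not counted. BLM is thus a member near 0 in 4EHP-null cells and the lowest in GIGYF1/2-null cells. Its mRNA call was lost without WT library 1 (edgeR adjusted p = 0.0590), and its footprint call without either WT library or GIGYF1/2-null library 2 (edgeR adjusted p up to 0.133).

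ABHD2 had 72.6 and 71.5 CPM in GIGYF1/2-null cells and 89.9 and 97.1 CPM in WT cells (-0.38 ± 0.08, edgeR adjusted p = 8.83e-03). SEC11A fell by 0.30 ± 0.08 on the log2 scale (edgeR adjusted p = 0.0227), AKAP13 by 0.34 ± 0.10 (edgeR adjusted p = 0.0399) and TSPAN3 by 0.27 ± 0.08 (edgeR adjusted p = 0.0439). CSK had 161 and 153 CPM in GIGYF1/2-null cells and 121 and 128 CPM in WT cells (0.34 ± 0.08, edgeR adjusted p = 0.0142), and PARP6 rose by 0.39 ± 0.11 (edgeR adjusted p = 0.0320). The call of ABHD2 was lost without WT library 2, that of CSK without either WT library, those of SEC11A and PARP6 without either WT library or 1 of the GIGYF1/2-null libraries (library 1 for SEC11A, library 2 for PARP6), that of AKAP13 without any 1 of the 4 libraries compared, and that of TSPAN3 without any 1 of the 6 RNA-seq libraries. The call of AKAP13 was also lost with upper-quartile scaling (edgeR adjusted p = 0.0649), and that of TSPAN3 with upper-quartile scaling and with only the 4 libraries compared (edgeR adjusted p = 0.0833 and 0.0729). Over the fits without a library, edgeR adjusted p-values reached 0.101 for ABHD2, 0.142 for CSK, 0.141 for SEC11A, 0.309 for PARP6, 0.213 for AKAP13 and 0.236 for TSPAN3. The median TE change in GIGYF1/2-null over WT was 0.0096, with 28 of 59 below 0 against 52.9% of all genes. edgeR called none, where 6 of 13257 genes (0.0453%) were called. At an unadjusted p under 0.05 in edgeR there were 1 down and 2 up, and the share of all genes there was not counted.

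Relatives and partners of the listed proteins on other chromosomes were measured next, as a set drawn up from general knowledge of the proteins. The set held 54 paralogues and 80 members of the same complexes or pathways. In RNA-seq, 133 could be tested, and 9 rose and 5 fell in 4EHP-null over WT, which is 14 of 133 where 13.1% of all genes were called. The median change was 0.06 for 53 paralogues and -0.02 for 80 partners, next to -0.35 for the listed genes. In Ribo-seq 4 rose (IQGAP2, KNTC1, FANCD2 and AP3B1, an adaptor subunit) and 2 fell (MAP2K2, the kinase MEK2, and BTBD2) of 132, where 3.04% of all genes were called, and no TE change was called by edgeR (2 up and 7 down at an unadjusted p under 0.05). The share of all genes at that unadjusted threshold was not counted, so the 2 and 7 cannot be set against it. Without any 1 of the 4EHP-null or WT libraries, 2 to 5 rose and 0 to 2 fell in RNA-seq and none was called in Ribo-seq. The footprint call of AP3B1 was also lost in DESeq2 (adjusted p = 0.0593), and that of BTBD2 in DESeq2 (adjusted p = 0.181) and with a stricter filter in edgeR (adjusted p = 0.0529).

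IQGAP2, the relative of IQGAP1, rose most among them. It had 33.8 and 36.9 CPM of mRNA in 4EHP-null cells and 20.2 and 17.7 CPM in WT cells (0.90 ± 0.16, edgeR adjusted p = 3.65e-03), and 62.7 and 64.7 CPM of footprints in 4EHP-null cells and 36.1 and 34.5 CPM in WT cells (0.85 ± 0.16, edgeR adjusted p = 0.0151). IQGAP1 itself is one of the members that were near 0. VPS33A, the relative of VPS33B, had 111 and 107 CPM in 4EHP-null cells and 78.0 and 79.4 CPM in WT cells (0.47 ± 0.08, edgeR adjusted p = 1.97e-03), a call that held in all 13 alternative fits. CHD1 rose by 0.56 ± 0.12 and MATK, a relative of CSK, by 0.41 ± 0.11 (edgeR adjusted p = 9.44e-03 and 0.0248). The mRNA call of IQGAP2 was lost without WT library 2 (edgeR adjusted p = 0.0526) and its footprint call without any 1 of the 4 libraries compared (up to 0.130), and the calls of CHD1 and MATK without either WT library or 1 of the 4EHP-null libraries (library 2 for CHD1, library 1 for MATK; edgeR adjusted p up to 0.130 and 0.195).

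Among complex partners, KNTC1, which forms the RZZ complex of kinetochores with ZWILCH and ZW10, rose by 0.54 ± 0.09, while ZW10 fell by 0.34 ± 0.09 (edgeR adjusted p = 2.92e-03 and 0.0224). FANCD2, the partner of FANCI, had 99.0 and 99.2 CPM in 4EHP-null cells and 75.9 and 75.6 CPM in WT cells (0.39 ± 0.08, edgeR adjusted p = 7.71e-03). ETFB, which forms a dimer with ETFA, had 51.2 and 48.4 CPM in 4EHP-null cells and 60.7 and 69.7 CPM in WT cells (-0.39 ± 0.09, edgeR adjusted p = 0.0156). EXOSC1, a cap subunit of the exosome that DIS3L joins, fell by 0.51 ± 0.11, BTBD2, the relative of BTBD1, by 0.38 ± 0.09, and TWNK, the mitochondrial helicase that works with POLG, by 0.32 ± 0.08 (edgeR adjusted p = 8.62e-03, 0.0152 and 0.0246). Of the 2 partners of ZWILCH that were called, 1 thus rose and 1 fell, and whether this concerns the complex was not tested. CLSPN, a fork protein that works with TIMELESS and TIPIN, and MAN2B1, the lysosomal alpha-mannosidase, also rose, by 0.52 ± 0.14 and 0.40 ± 0.11 (edgeR adjusted p = 0.0257 and 0.0294), and are named after their values were seen. The call of CLSPN was lost without any 1 of the 4 libraries compared and that of MAN2B1 without WT library 1 or either 4EHP-null library, with edgeR adjusted p-values of up to 0.268. The call of KNTC1 was lost without WT library 2, that of EXOSC1 without WT library 2 or 4EHP-null library 1, that of ETFB without WT library 2 or either 4EHP-null library, that of BTBD2 without either WT library or 4EHP-null library 2, and those of FANCD2, ZW10 and TWNK without any 1 of the 4 libraries compared, with edgeR adjusted p-values of up to 0.209 over these fits.

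The neighbours of these genes on their own chromosomes were read in the same way. The median RNA-seq change in 4EHP-null over WT of the 24 nearest tested genes was 0.30 around VPS33A and 0.32 around KNTC1, both on chromosome 12, and -0.46 around EXOSC1 and -0.39 around TWNK, both on chromosome 10. Around IQGAP2 and CHD1 on chromosome 5 it was 0.07 and 0.20, around FANCD2 on chromosome 3 it was 0.16, around ZW10 on chromosome 11 it was -0.02, and around ETFB and BTBD2 on chromosome 19 it was -0.01 and -0.10. For VPS33A, KNTC1, EXOSC1 and TWNK, the neighbours were thus shifted in the direction of the gene. Those of CHD1, FANCD2 and BTBD2 were also shifted in the direction of the gene, by less. The part of this in the change of each gene was not tested. For ETFB and ZW10 the neighbours stood near 0.

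**Figure D5:**
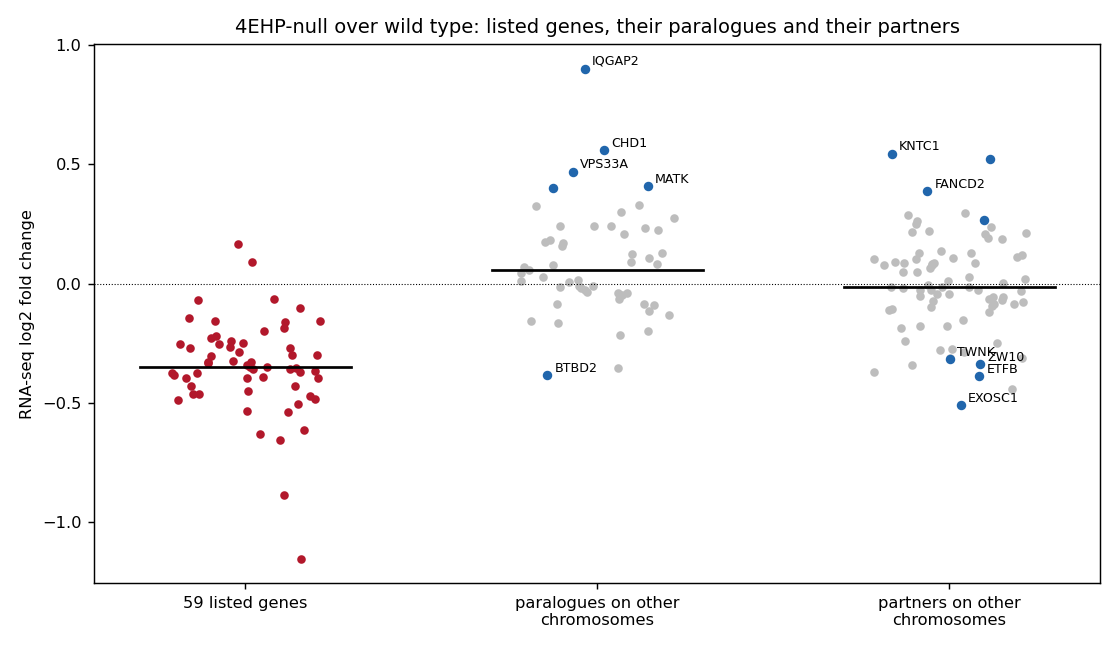
RNA-seq log2 fold change of 4EHP-null over WT for the 59 listed genes (left), paralogues on other chromosomes (middle) and partners on other chromosomes (right), with the median of each as a black bar. Points are genes, spread sideways for legibility, blue points passed the test, and names mark up to 6 per direction with the smallest adjusted p; the paralogues and partners scatter around 0.

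The authors' deposited table of the RNA-seq comparison gives 40 of the 59 genes as lower and 0 as higher in 4EHP-null over WT at an adjusted p under 0.05, where 10.1% of its 11268 genes are lower. The authors' deposited table for Ribo-seq holds 56 of the genes and gives 8 as lower and 0 as higher, where 2.57% of its genes are lower, and the authors' deposited table for TE gives 0 of 56, where 0.274% are lower and 0.233% higher. For GIGYF1/2-null over WT, the authors' deposited table for RNA-seq gives 5 as lower and 4 as higher, where 9.81% of its genes are lower and 7.84% higher. The authors' deposited table for Ribo-seq in that comparison gives 1 as lower and 1 as higher of 56, where 3.57% are lower and 2.28% higher, and that for TE gives 0.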

How the data were processed

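The authors deposited tables of raw read counts per gene symbol for RNA-seq and Ribo-seq, with no normalization, and a gene length for each symbol. Per the submitters' processing notes, the human build was hg19 and the tools were TopHat2, Bowtie2 and edgeR. The counting tool, annotation and strand setting were not given in the sources used here. The authors also deposited tables of each null line against WT with log2 fold changes and adjusted p-values.

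Counts were fitted with edgeR 4.0.16 in R 4.3.3. filterByExpr took out genes of low count, TMM factors were set for each assay, and quasi-likelihood F-tests (two-sided) were run over the 6 libraries of an assay, with Benjamini-Hochberg adjustment over all genes tested (15637 in RNA-seq, 14722 in Ribo-seq). Translation efficiency was an assay by genotype interaction over 12 libraries and 13257 genes. Fits were checked on simulated counts. RPKM was computed from scaled counts and the deposited gene lengths. Gene order and overlap were read from RefSeq's GRCh38.p14 gene table, not hg19, for neighbours only, which matched 25573 genes (94.7%). All deposited count columns were matched to a sample. The set of 134 paralogues and partners had 133 genes tested in RNA-seq and 132 in Ribo-seq.

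The members, the sets of paralogues and partners, and the rule for named genes were chosen with earlier results of these data known. The rule took the 6 lowest and 6 highest members in RNA-seq, the 4 lowest and 4 highest in translation efficiency, up to 6 members called per direction in GIGYF1/2-null cells, examples nearest each role's median, up to 6 called paralogues or partners per direction, and the 6 lowest and 6 highest unlisted neighbours with an average log2 CPM of at least 2, with EIF4E2, GIGYF1 and GIGYF2 as checks of the labels. Tried as alternatives were upper-quartile and RLE scaling, a stricter filter (mean count of 50) and none, DESeq2 1.42.0, only the libraries compared, the replicate number as a block, leaving out each library, and, chosen after seeing the data, only members whose span overlaps no other gene. One called partner is counted but its own result is not reported here.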

Additional observations from a re-analysis of the deposited data

How the results depend on the processing

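For the listed genes in 4EHP-null over WT, the RNA-seq median was -0.36 with upper-quartile scaling and -0.37 over the 30 genes that overlap none, and leaving out a library gave -0.36 to -0.33 and 14 to 37 genes called down. In Ribo-seq the 7 calls became 17 without a filter and 11 with only the libraries compared, and leaving out a library gave 1 to 10 calls and a median of -0.41 to -0.33. The TE median was 0.053 with the stricter filter, and -0.029 to 0.055 with a library left out.

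In GIGYF1/2-null over WT, upper-quartile scaling gave 3 down in RNA-seq and medians of 0.025 in RNA-seq, -0.012 in Ribo-seq and 0.044 in TE, so the RNA-seq median changed sign. Over all tested genes that scaling called 1002 up and 868 down in RNA-seq, against 813 and 1055, and 132 up and 139 down in Ribo-seq, against 107 and 200. No filter gave 8 down in RNA-seq and 1 up in Ribo-seq, and the stricter filter a Ribo-seq median of -0.048. Over the 30 genes that overlap none, 4 were called down in RNA-seq and 1 in Ribo-seq, with medians of -0.054 in RNA-seq, -0.10 in Ribo-seq and -0.018 in TE. Leaving out a library gave 1 to 4 down and 0 to 2 up in RNA-seq with medians of -0.038 to -0.0080, 0 to 1 down in Ribo-seq with medians of -0.077 to -0.052, and TE medians of -0.051 to 0.017.

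Of the paralogues and partners, upper-quartile scaling called 8 down in RNA-seq, no filter 9 down in RNA-seq and 6 in Ribo-seq, the stricter filter 1 down in Ribo-seq, DESeq2 1 down in Ribo-seq, and only the libraries compared 8 down in RNA-seq and 5 in Ribo-seq. Leaving out a library gave 0 to 8 down and 2 to 10 up in RNA-seq, and 0 to 5 down and 0 to 4 up in Ribo-seq. The causes were not tested, except that a left-out library leaves fewer samples.

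The replicate numbers are shared by the genotypes, but the labels tie them to no culture or day, and there are only 2. Deviations of libraries with the same number correlated at 0.137 to 0.369 between genotypes. With the replicate number as a block, the listed genes called in 4EHP-null over WT in Ribo-seq were 30 down, where 6.49% of all genes were called down in that fit, and 28 were called down in both assays, 18 in RNA-seq alone and 2 in Ribo-seq alone. In GIGYF1/2-null over WT the block gave 8 down and 5 up in RNA-seq, where 11.3% of all genes were called down and 9.27% up, and 3 down and 2 up in Ribo-seq, where 7.57% were called down and 4.29% up. Of the paralogues and partners, the block called 14 down and 20 up of 133 in RNA-seq, where 22.8% of all genes were called, and 11 down and 7 up of 132 in Ribo-seq, where 12.4% were called. Depth limits the genes with few footprints, PARP6 and LYSMD4 among them, where a member had as few as 5 counts in a 4EHP-null library.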
